A study of Mus musculus with 3 samples.

Results

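Transcripts of the RUNX family, of their partner CBF-beta and of 6 ETS family factors were measured by RNA-seq of polyadenylated RNA in primary mouse cells labelled as activated regulatory T cells. The set was chosen by name and holds 10 genes of the 55536 in the deposited gene tables: Runx1, Runx2, Runx3, Cbfb, Ets1, Fli1, Ets2, Elf1, Elf4 and Gabpa. All 10 symbols matched 1 gene each. The cells came from a male mouse, 9 weeks old, of a strain written Foxp3GFP-DTRCD4CreERT2R26tdTomato. Such alleles place a green fluorescent protein and a diphtheria toxin receptor under the control of Foxp3, a tamoxifen-inducible Cre under that of Cd4, and a red fluorescent reporter at the Rosa26 locus. The labels name no toxin, tamoxifen or activating agent, and they do not say whether cells of several animals were pooled. There was 1 group of 3 libraries, technical replicates 1, 2 and 3 of 1 biological replicate, with no resting or other cells beside it. Every SD below is therefore over 3 libraries of 1 biosample (n = 3), and SDs and p-values alike measure only the spread between these libraries, which may be technical.

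RUNX proteins bind DNA through a runt domain and do so far more tightly when paired with CBF-beta, which does not itself contact DNA. Their genes are each transcribed from a distal and a proximal promoter, which give proteins with different N-terminal ends. In regulatory T cells RUNX1 is known as a partner of FOXP3, and CBF-beta is known to be needed for stable Foxp3 expression. ETS proteins share a winged helix domain that recognises a GGAA core. ETS1 is known to bind an enhancer within Foxp3, GABP-alpha to act on Il7r, and ELF1 on the interleukin-2 receptor alpha chain gene.

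All 10 genes were detected, meaning at 1 TPM (a level scaled to transcript length and library depth) or more in every library. Their mean levels ran from 413 TPM for Ets1 to 2.17 TPM for Runx2, and the median of the 12598 detected genes was 20.6 TPM. In order of mean TPM they stood as Ets1, Elf1, Fli1, Gabpa, Runx1, Elf4, Cbfb, Ets2, Runx3 and Runx2. The ranges over the libraries overlapped for 3 of the 9 neighbouring pairs: Runx1 with Elf4, Elf4 with Cbfb, and Ets2 with Runx3. The other neighbours did not overlap, and the higher gene was the higher in all 3 libraries. The leading 3 were ETS genes, and Ets1 exceeded 97.1% of detected genes.

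**Figure D1:**
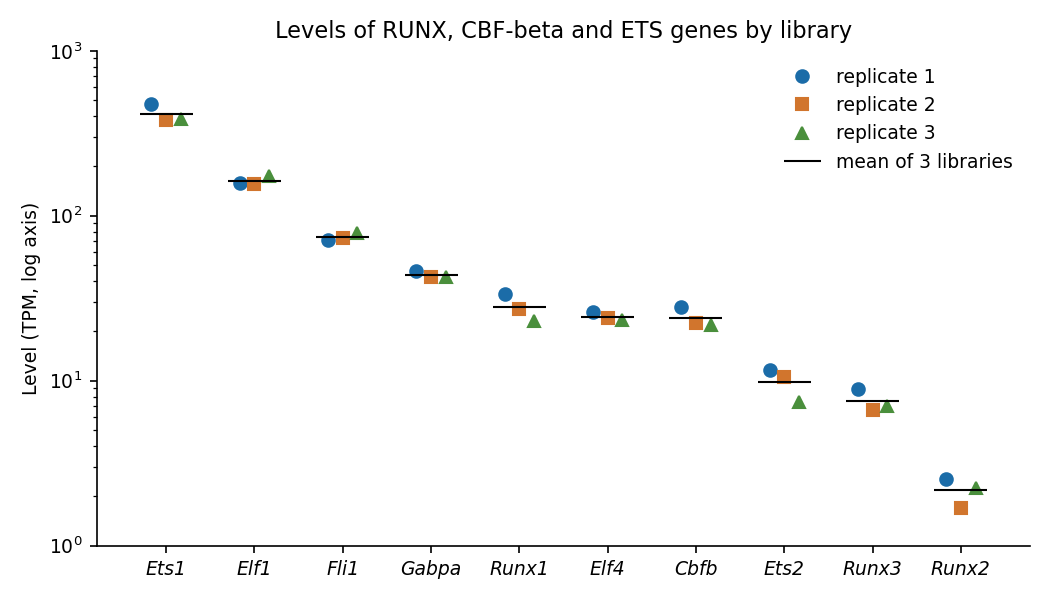
Level of each gene in each library (TPM, log axis), with points for technical replicates 1, 2 and 3 and a line at their mean. Ets1 lies highest at 413 TPM and Runx2 lowest at 2.17 TPM, and the points of Runx1, Elf4 and Cbfb overlap.

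Library totals lay between 18496690 and 21206219 estimated counts. Each gene's counts were tested against these totals by a chi-square test of homogeneity, which asks whether libraries differ by more than counting noise. Over all genes, 44.9% of 14641 tested differed between libraries at a Benjamini-Hochberg adjusted p below 0.05, and 8 of the 10 genes of the set did. Among the 9956 genes with a mean count of 100 or more, the class to which all 10 belong, the share was 55.4%. With 1 library left out, fewer genes differed in the whole table as well. Without replicate 1, 3 of the 10 differed (Runx1, Ets2 and Elf1), beside 30.3% of all genes tested. Without replicate 3, 5 did (Runx1, Runx3, Cbfb, Ets1 and Fli1), beside 34% of all genes. Without replicate 2, 8 did, beside 27.7%.

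The T cell identity of the sample was visible in its markers. All 6 T cell markers (Cd3e, Cd3g, Cd4, Foxp3, Trac and Lck) were detected, at a summed level of 7092 to 8042 TPM. Markers of other cell types that use these factors were at or near 0 for several types. Megakaryocyte and platelet markers, a lineage that needs RUNX1 and FLI1, had 0 of 5 genes detected, a summed 1.11 to 1.34 TPM, and Gp1bb at 0. NK cell markers summed to 0.08 to 0.31 TPM with 0 of 4 detected. Of the osteoblast list, a lineage directed by RUNX2, Sp7, Bglap and Ibsp were at 0 in every library and only Alpl, at 2.53 ± 0.584 TPM, was detected, with a summed 2.15 to 3.47 TPM. Of the 4 endothelial markers Cdh5, Kdr and Tek each averaged 0.06 TPM or less, while Pecam1, which leukocytes also express, was at 97.1 ± 6.61 TPM and carried nearly all of a sum of 92.2 to 105 TPM. B cell markers (3 of 5 detected) summed to 9.68 to 15.6 TPM and myeloid markers (4 of 5 detected, S100a8 at 0) to 21.2 to 32.2 TPM. For the CD8 T cell pair the sum was 18.5 to 24.3 TPM, with Cd8a itself at 1.46 ± 0.960 TPM and Cd8b1 at 20.6 ± 2.57 TPM. The part of such cells in the levels below was not tested. In bulk RNA, fewer cells of a type and less RNA per cell cannot be told apart.

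Of the 3 RUNX genes, Runx1 was the most abundant. Runx1 (ENSMUSG00000022952.17, mm10 chr16:92601466-92826149, minus strand) is needed for the emergence of blood stem cells and acts through much of T cell development. Its level was 33.3, 27.2 and 22.9 TPM in replicates 1, 2 and 3, or 27.8 ± 5.26 TPM (SD, n = 3). Replicate 1 was the highest and replicate 3 the lowest. In CPM (counts scaled to library size) the highest library stood 1.37-fold above the lowest (chi-square test, Benjamini-Hochberg adjusted p = 2.02e-12).

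Runx3 (ENSMUSG00000070691.10, chr4:135120652-135177990, plus strand) represses Cd4 and supports the CD8 and type 1 helper programmes. It was at 8.88, 6.61 and 7.00 TPM, a mean of 7.50 TPM, and replicate 1 again lay above the other libraries, which differed little from each other. Between the highest and lowest library its CPM differed 1.35-fold (chi-square test, adjusted p = 9.47e-05). Runx2 (ENSMUSG00000039153.16, chr17:44495987-44814797, minus strand), best known as the master factor of bone formation, was at 2.55, 1.70 and 2.25 TPM, or 2.17 ± 0.431 TPM. With 433 estimated counts over the 3 libraries it was the most thinly covered gene of the set, and its 1.29-fold range of CPM did not pass the chi-square test (adjusted p = 0.140). Runx1 thus held 74.1 ± 2.73% of the summed RUNX TPM, Runx3 20.1 ± 1.61% and Runx2 5.83 ± 1.12%. This order was the same in all 3 libraries.

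Cbfb (ENSMUSG00000031885.14, chr8:105170674-105217989, plus strand), the gene of the shared partner, was at 28.2, 22.3 and 21.7 TPM, or 24.1 ± 3.57 TPM. As with Runx1, replicate 1 was highest and replicate 3 lowest, with a 1.38-fold range of CPM (chi-square test, adjusted p = 3.91e-09). The summed level of the 3 RUNX genes was 44.8, 35.6 and 32.1 TPM in the same libraries. The log2 ratio of that sum to Cbfb was 0.67, 0.67 and 0.57, a mean of 0.64 ± 0.06. By gene level, the RUNX sum therefore exceeded Cbfb in each library, and the ratio varied less than either level did. Gene levels include noncoding transcripts and fragments. Transcripts annotated as protein-coding held 71.7 ± 8.28% of the TPM of Runx1 and 96.2 ± 2.61% of that of Cbfb. The Runx1 share includes Runx1-204, a fragment of 336 bases with 20.7 ± 4.73% of the TPM. Longer coding transcripts averaged 10.9 TPM for Runx1-201, 1.99 TPM for Runx1-203, 7.34 TPM for Runx3-201 and 1.79 TPM for Runx2-202. Those of Cbfb averaged 11.9 TPM for Cbfb-203, 8.88 TPM for Cbfb-202 and 2.35 TPM for Cbfb-201. The excess by gene level therefore cannot be carried over to full-length coding transcripts, whose sums were not tested.

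The transcript tables divided the reads of the RUNX genes among annotated transcripts of GENCODE M21. Transcripts were grouped by annotated start, joining starts within 500 bases, and shares are of the summed transcript TPM of the gene. These are model-based assignments of short reads, and no 5′ end was measured. In all 3 genes the most upstream group, that of the distal promoter, held the largest share. For Runx1 it held 80.2, 78.8 and 85.5% (mean 81.5 ± 3.51%), and by estimated counts 86.8 ± 1.57%. For Runx2 it held 93.3, 98.2 and 93.3%, and for Runx3 100, 100 and 93.1%. The Runx1 group joins 3 transcripts whose starts spread beyond 100 bases, and with starts joined only within 100 bases its leading share was 60.8%.

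The distal windows of the 3 genes are printed because they carry an identical run of bases next to the starts that held most of the RNA. Each window is the RefSeq promoter of build GRCm38.p6, 250 bases before to 50 after the RefSeq start, given 5′ to 3′ on the gene's strand. Capitals mark the letters ACCACA, a RUNX recognition sequence, searched on both strands.
Runx1 distal, chr16:92826025-92826324, minus strand: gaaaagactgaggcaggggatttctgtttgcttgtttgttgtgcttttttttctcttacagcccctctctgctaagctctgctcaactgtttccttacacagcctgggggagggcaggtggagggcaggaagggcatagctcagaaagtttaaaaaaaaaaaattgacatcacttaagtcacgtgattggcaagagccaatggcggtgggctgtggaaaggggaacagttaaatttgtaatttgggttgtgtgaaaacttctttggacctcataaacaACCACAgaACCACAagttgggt
Runx2 distal, chr17:44814578-44814877, minus strand: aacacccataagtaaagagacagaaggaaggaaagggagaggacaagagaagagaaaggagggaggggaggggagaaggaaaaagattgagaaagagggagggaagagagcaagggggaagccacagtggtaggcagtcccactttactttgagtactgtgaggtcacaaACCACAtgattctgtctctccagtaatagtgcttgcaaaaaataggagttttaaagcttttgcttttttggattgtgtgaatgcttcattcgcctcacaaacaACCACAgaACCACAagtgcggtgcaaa
Runx3 distal, chr4:135120395-135120694, plus strand: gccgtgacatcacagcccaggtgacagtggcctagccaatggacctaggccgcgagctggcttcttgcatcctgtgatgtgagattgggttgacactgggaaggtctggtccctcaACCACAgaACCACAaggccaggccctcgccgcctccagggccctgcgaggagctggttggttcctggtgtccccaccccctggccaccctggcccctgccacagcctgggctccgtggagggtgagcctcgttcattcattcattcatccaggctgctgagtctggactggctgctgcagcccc
For contrast, the windows of the proximal starts of Runx1 and Runx3 hold no such letters. The Runx1 start group at that window was assigned 7.14 ± 0.666% of the TPM, and the groups further downstream, which have no window here, 6.89 ± 2.23% and 4.47 ± 2.46%. The Runx3 group was at 0, 0 and 6.86% of the TPM, the last from 1 estimated count in replicate 3.
Runx1 proximal, chr16:92697280-92697579, minus strand: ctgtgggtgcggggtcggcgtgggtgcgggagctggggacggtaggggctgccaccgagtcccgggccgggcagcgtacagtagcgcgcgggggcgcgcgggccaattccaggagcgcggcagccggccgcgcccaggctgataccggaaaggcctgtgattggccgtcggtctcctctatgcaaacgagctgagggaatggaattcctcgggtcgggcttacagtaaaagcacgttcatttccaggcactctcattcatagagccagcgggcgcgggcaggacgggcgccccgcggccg
Runx3 proximal, chr4:135152295-135152594, plus strand: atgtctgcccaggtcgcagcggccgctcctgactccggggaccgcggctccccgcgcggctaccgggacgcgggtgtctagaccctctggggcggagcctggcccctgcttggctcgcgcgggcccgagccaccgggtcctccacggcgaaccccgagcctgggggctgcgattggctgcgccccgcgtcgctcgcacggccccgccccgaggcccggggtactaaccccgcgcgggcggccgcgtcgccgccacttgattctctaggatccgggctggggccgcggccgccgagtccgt

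All 3 distal windows held the 18-base run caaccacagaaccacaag, in which ACCACA stands as a tandem pair. The run was picked as the longest one common to these same 3 windows, so their matches were fixed by that choice. On either strand it occurred in 4 of 32851 RefSeq windows (0.0122%), these 3 included, and the single ACCACA in 16.8% of all windows. The low rate of the run is therefore no separate support. The fourth window belongs to Gm16225, a noncoding RNA gene on the opposite strand whose window overlaps that of Runx3, and which was at 0.67, 0.64 and 0.37 TPM. RefSeq windows matched 8 of the 10 genes, with 12 windows in all, and only the 3 RUNX distal windows held ACCACA. The run lies 126 bases before the annotated start of Runx3-201. In Runx1-201 and Runx2-202 it lies after the annotated GENCODE start, and so within the annotated span of the transcript. Whether it falls in an exon there was not checked. A match of letters is a description of the window and shows no binding.

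**Figure D2:**
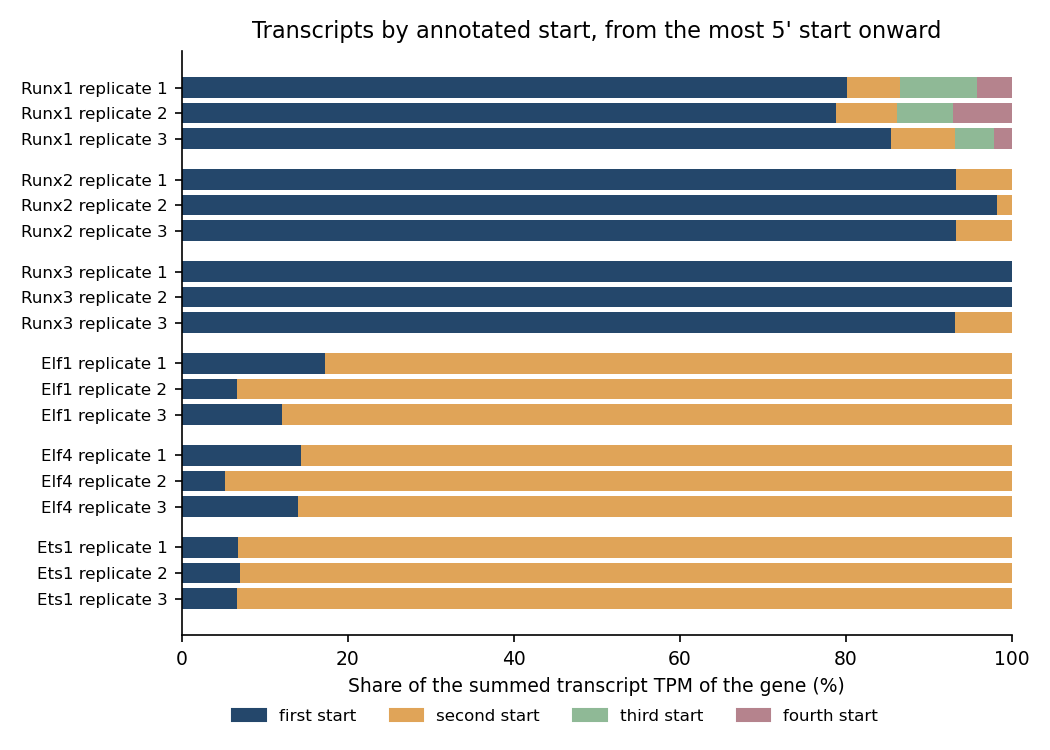
Share of each gene's summed transcript TPM by group of annotated starts (horizontal axis, %), for 6 genes in each of the 3 libraries, with groups coloured from the most upstream start onward. The most upstream start holds most of Runx1, Runx2 and Runx3, while the second start holds most of Elf1, Elf4 and Ets1.

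The distal transcripts encode a distinct N-terminal end, which starts in a short coding exon absent from the proximal transcripts. The coding part of that exon is 58 bases long in each of Runx1-201, Runx2-202 and Runx3-201, and it is printed to show how much of it the 3 genes share. Sequences are those of the GENCODE M21 transcripts, and capitals mark positions with the same base in all 3.
Runx1-201, chr16:92825589-92825646, minus strand: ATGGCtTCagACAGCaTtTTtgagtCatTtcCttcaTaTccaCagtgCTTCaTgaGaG
Runx2-202, chr17:44814169-44814226, minus strand: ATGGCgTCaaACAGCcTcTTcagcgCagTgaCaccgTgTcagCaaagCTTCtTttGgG
Runx3-201, chr4:135121106-135121163, plus strand: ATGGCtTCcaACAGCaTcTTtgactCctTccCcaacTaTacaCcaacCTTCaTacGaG
The same base stood in all 3 genes at 28 of 58 positions (48.3%). Runx1 and Runx3 were the closest pair, with 41 positions in common (70.7%), against 34 (58.6%) for Runx1 and Runx2 and 33 (56.9%) for Runx2 and Runx3.

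Single transcripts of the RUNX genes differed in how firmly they could be assigned. Runx1-201, the full-length distal transcript with a coding length of 1395 bases, held 40.8, 35.2 and 41.3% of Runx1 TPM but 68.7 ± 4.93% of its estimated counts. The gap goes with Runx1-204, a fragment of 336 bases to which 32.3, 17.4 and 15.8 estimated counts gave 20.7 ± 4.73% of the TPM. Runx1-207, a processed transcript with no coding sequence, took 13.9, 27.5 and 23.8%. Its deposited credibility intervals, which surround a posterior mean that can differ from the TPM estimate, were 3.51 to 4.86 TPM in replicate 1 and 5.93 to 7.61 TPM in replicate 2, and these do not overlap. Those of Runx1-201 were 11.3 to 13.1 TPM in replicate 1 and 7.92 to 9.34 TPM in replicate 2. Replicate 1 was thus the highest for the coding transcript and the lowest for the noncoding one. The leading proximal coding transcript, Runx1-203, held 6.89 ± 2.23%. Runx2-202 held 83.3 ± 8.39% of Runx2, and a retained intron fragment, Runx2-208, 11.8, 0 and 14.7% from 2 counts or fewer per library. Runx3-201 held 97.7 ± 3.96% of Runx3.

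For Cbfb, coding variants rather than starts divided the RNA. Cbfb-203, with a coding length of 444 bases, held 44.9, 49.1 and 56.3% of the TPM (mean 50.1 ± 5.76%). Cbfb-202 (coding length 546 bases) held 37.0 ± 1.09%, and Cbfb-201 (561 bases) 16.8, 10.4 and 0%. Replicate 3 had the highest share of Cbfb-203 and the lowest of Cbfb-201. The credibility intervals of the 3 libraries overlapped for each of these transcripts, so no difference in their use was resolved. Those of Cbfb-203 and Cbfb-202 also overlapped each other in every library, so the order of these transcripts was not resolved. Cbfb-203 lacks an exon of 117 bases that Cbfb-202 and Cbfb-201 contain, a length that keeps the reading frame. It is the only coding difference between Cbfb-203 and Cbfb-201. Cbfb-202 differs from Cbfb-203 in later coding exons as well, with 127 against 96 bases and 20 against 66. The exon is printed because Cbfb-203 lacks it and the longer forms hold it, and it has no part in capitals.
Cbfb exon absent from Cbfb-203, chr8:105178593-105178709, plus strand: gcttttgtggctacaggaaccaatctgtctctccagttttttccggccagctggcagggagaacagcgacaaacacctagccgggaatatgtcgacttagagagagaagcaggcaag

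**Figure D3:**
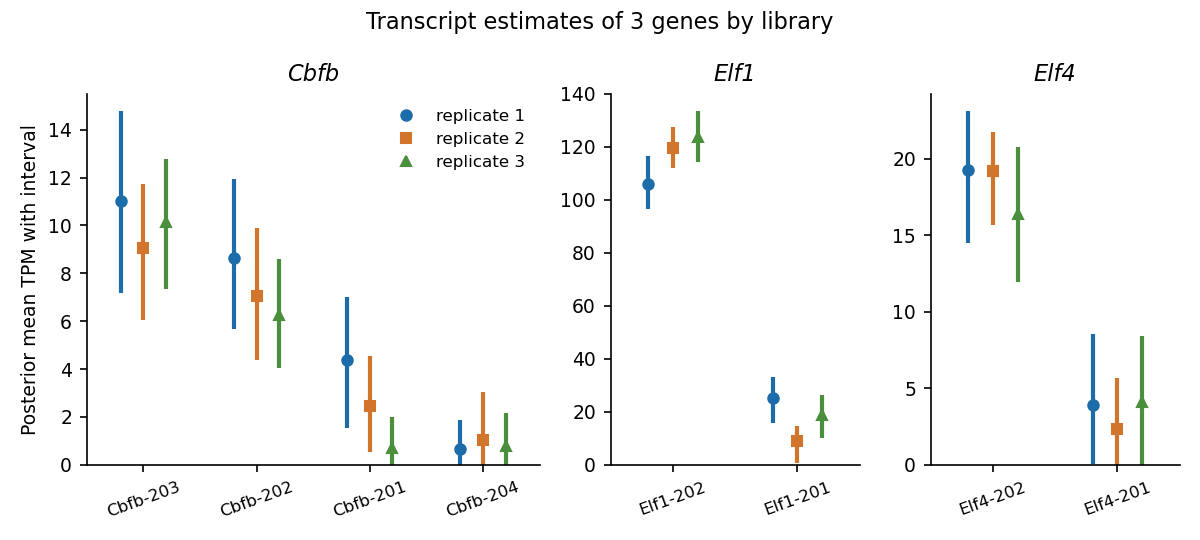
Posterior mean TPM of transcripts of Cbfb, Elf1 and Elf4 in each library (vertical axis from 0), with the deposited credibility interval as a bar, whose level the files do not give. For Cbfb the bars of the 3 libraries overlap within each transcript, and Elf1-202 and Elf4-202 lie above Elf1-201 and Elf4-201 in every library.

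Among the ETS members, Ets1 led in the first of the deposited gene tables, from which all TPM come; its counts in the second are given at the end. Ets1 (ENSMUSG00000032035.15, chr9:32636221-32757820, plus strand), a factor of T, B and NK cell development whose loss impairs regulatory T cells, was at 476, 380 and 384 TPM, or 413 ± 54.0 TPM. Replicate 1 stood apart from the other libraries, which lay within 5 TPM of each other. CPM differed 1.22-fold (chi-square test, adjusted p = 1.14e-151), but without replicate 1 the adjusted p was 0.359. Elf1 (ENSMUSG00000036461.16, chr14:79481194-79582494, plus strand) followed at 158, 157 and 174 TPM, or 163 ± 9.80 TPM, with replicate 3 the highest. Its 1.10-fold range passed the chi-square test (adjusted p = 1.94e-09) but not without replicate 3 (adjusted p = 0.769).

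Fli1 (ENSMUSG00000016087.13, chr9:32422204-32542861, minus strand), the neighbour of Ets1 on chromosome 9 and a factor of megakaryocytes, endothelium and T cells, was at 70.9, 73.6 and 78.7 TPM, or 74.4 ± 3.94 TPM. Like Elf1 it was highest in replicate 3 and varied little, 1.08-fold in CPM (chi-square test, adjusted p = 0.0127). Elf4 (ENSMUSG00000031103.12, chrX:48411046-48463132, minus strand), known for holding CD8 T cells in quiescence, was at 26.0, 23.9 and 23.2 TPM. Its mean of 24.4 ± 1.49 TPM was close to that of Cbfb, and its 1.12-fold range of CPM passed the chi-square test (adjusted p = 0.00848). Ets2 (ENSMUSG00000022895.16, chr16:95702075-95721051, plus strand), a target of Ras signalling that represses Il2 in resting T cells, was at 11.6, 10.5 and 7.41 TPM. It had the widest range of CPM of the set, 1.47-fold, with replicate 3 the low library (chi-square test, adjusted p = 3.02e-06).

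Gabpa (ENSMUSG00000008976.16, chr16:84834925-84863779, plus strand) encodes the DNA-binding subunit of GABP, a factor of mitochondrial and housekeeping genes. It was at 46.3, 42.5 and 42.7 TPM, or 43.8 ± 2.15 TPM, and varied least of the 10, 1.06-fold in CPM, which did not pass the chi-square test (adjusted p = 0.173). Its partners are GABP-beta proteins, which supply the activation domain. Gabpb1 was at 67.5 ± 5.42 TPM and Gabpb2 at 27.9 ± 2.61 TPM, and both differed between libraries (chi-square test, adjusted p = 0.000166 and 1.93e-12). Gabpb1 was highest in replicate 1 and Gabpb2 in replicate 2. The log2 ratio of Gabpa to their sum was -1.09, -1.13 and -1.15, a mean of -1.12 ± 0.03. Gabpa was thus below the sum of its partners in each library. It was also below Gabpb1 alone, but above Gabpb2, in each library. The ratio is not like that of RUNX to Cbfb, where the DNA-binding side was the one summed.

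The Gabpa window is printed because it was the single one of the 12 that held the ETS sequence CCGGAAG, here on the opposite strand, together with GGAAGT. Capitals mark both matches.
Gabpa, chr16:84834874-84835173, plus strand: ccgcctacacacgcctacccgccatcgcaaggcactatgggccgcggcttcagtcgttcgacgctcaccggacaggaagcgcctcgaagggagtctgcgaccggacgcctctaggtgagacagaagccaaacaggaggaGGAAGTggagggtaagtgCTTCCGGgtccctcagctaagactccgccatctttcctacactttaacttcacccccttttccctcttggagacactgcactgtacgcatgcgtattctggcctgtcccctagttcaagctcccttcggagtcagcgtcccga
CCGGAAG, searched on both strands, occurred in 8.86% of all windows. GGAAGT occurred in 23.8% of all windows and in 3 of the 12, those of Cbfb, Gabpa and the downstream start of Elf1. These shares give the rate of the letters in RefSeq windows of equal length and say nothing of ETS binding. The window lies within the annotated span of Atp5j, which is on the opposite strand, overlaps Gabpa by 701 bases and was at 445 ± 27.5 TPM.

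Together the 6 ETS members reached 729 ± 52.8 TPM. Of that sum, Ets1 held 56.6 ± 3.32%, Elf1 22.4 ± 2.27%, Fli1 10.3 ± 1.11%, Gabpa 6.02 ± 0.151%, Elf4 3.35 ± 0.116% and Ets2 1.35 ± 0.265%. The share of Ets1 was highest in replicate 1 at 60.3%, against 55.3 and 54.1% in replicates 2 and 3.

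Most ETS members were carried by 1 coding transcript. Across the whole set 8 of 10 genes had a leading transcript with 50% or more of the TPM in every library, the exceptions being Runx1 and Cbfb. Of 59 annotated transcripts, 36 of them protein-coding, 16 were at 0 in every library. Ets1-201, with a coding length of 1320 bases, held 92.4 ± 0.585% of Ets1. Ets1-202 (1059 bases) lacks a coding exon of 261 bases at chr9:32738099-32738359 and held 1.56, 0.321 and 0.616%. That exon is known to encode part of the region that restrains DNA binding by ETS1. Nearly all RNA assigned to coding Ets1 transcripts thus belonged to the form with that exon. Fli1-201 held 98.8 ± 2.09% of Fli1 and Ets2-201 82.7 ± 6.08% of Ets2.

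Elf1, Elf4 and Gabpa instead had pairs of transcripts that differ outside the coding sequence. Elf1-202, from the downstream start, held 80.8 ± 4.34% of Elf1, and Elf1-201, from the upstream start, 17.3, 6.66 and 12.1%, with the same coding length of 1836 bases. Replicate 2 was low for Elf1-201, with a credibility interval of 0.850 to 14.6 TPM that did not overlap the 15.8 to 33.0 TPM of replicate 1. Elf4-202, also from the downstream start, held 85.7, 94.8 and 86.0% of Elf4, and Elf4-201 held 14.3, 5.23 and 14.0%. Both Elf4 transcripts code for 1965 bases, and their intervals overlapped between libraries. Gabpa-201 held 61.9 ± 1.29% and Gabpa-202 27.1 ± 1.36% of Gabpa, again with an equal coding length (1362 bases). Within each of the 3 pairs the coding exons are identical.

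The 10 genes leaned to 1 library. By CPM, 8 were highest in replicate 1 and 2 (Elf1 and Fli1) in replicate 3, and TMM factors, DESeq2 size factors and TPM gave the same counts. Of all genes with a mean count of 100 or more, 34.6% were highest in replicate 1, 32% in replicate 2 and 33.5% in replicate 3. The genes that differed and were highest in replicate 1 numbered 6 of the 10, where 17.1% of all genes tested did so, and 2 of 10 differed and were highest in replicate 3, where 13.6% did. The lowest library depended on the scale, with 7 genes lowest in replicate 3 by CPM but 4 by TPM, and 5 lowest in replicate 2 by TPM. The share of all genes lowest in each replicate was not computed, so these counts have no rate beside them. The differences were small. The median ratio of highest to lowest CPM was 1.26 in the set and 1.15 over all genes with a mean count of 100 or more. In coefficient of variation Ets2 stood at the 90.1th percentile of those genes, Runx3 at the 86.7th, Cbfb at the 85.4th and Runx1 at the 83.9th. At the other end Gabpa stood at the 16.1th and Fli1 at the 23.7th. All 6 T cell markers differed as well (adjusted p below 0.05 in the same test), 5 of them highest in replicate 3 and 1 in replicate 2, and their part in these differences was not tested.

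**Figure D4:**
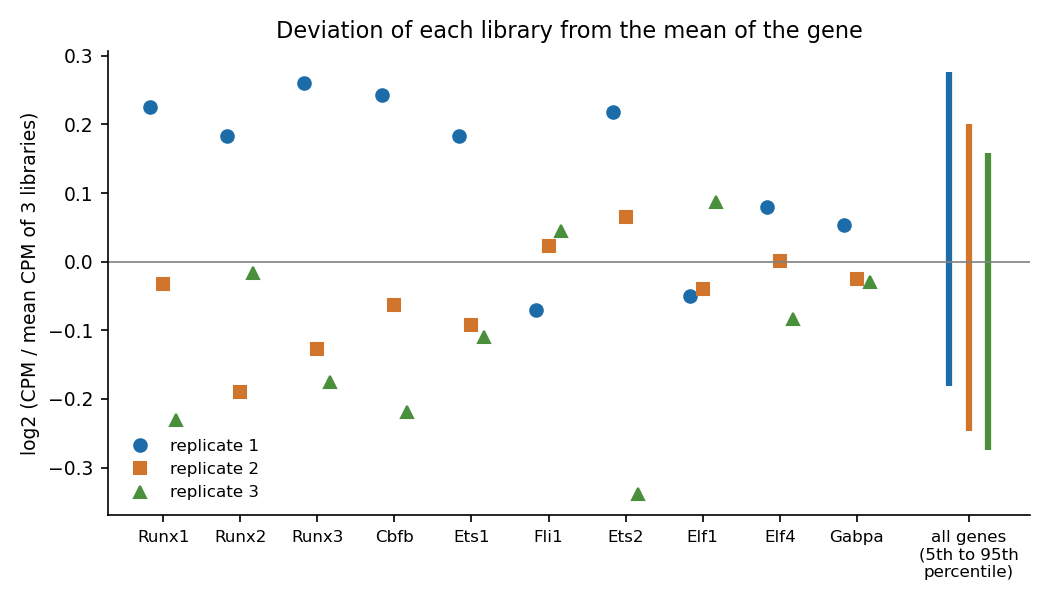
Deviation of each library from the gene's mean (vertical axis, log2 of CPM over mean CPM), for the 10 genes, with bars at the right for the 5th to 95th percentile of all genes with a mean count of 100 or more. Replicate 1 is the highest point for 8 genes, and Elf1 and Fli1 have replicate 3 on top.

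The rest of the ETS family was less abundant than the leading members. Of 20 other ETS genes, 9 were detected and 2 (Etv2 and Fev) were at 0 in every library. Elf2, a close relative of Elf1, was at 65.6 ± 4.71 TPM, and Elk4, a partner of serum response factor, at 54.6 ± 6.05 TPM. Etv3 (36.6 TPM), Elk3 (34.8 TPM), Etv6 (14.5 TPM), Elk1 (8.75 TPM), Etv5 (7.59 TPM) and Spic (3.24 TPM) came next, with Spib at 1.56 TPM the lowest detected. Spi1, the factor of myeloid and B cells, was at 1.69, 0.98 and 0.47 TPM and so was below 1 TPM in replicates 2 and 3. Of 12 with enough counts, 8 differed between libraries, beside 44.9% of all genes tested. Those 8 were highest in replicate 1 for 5 genes, in replicate 2 for 2 and in replicate 3 for 1, where 17.1, 14.2 and 13.6% of all genes differed and were highest. The 6 members held 75.9 ± 1.34% of the TPM of all 26 ETS genes, and Ets1 alone 43.0 ± 3.25%.

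**Figure D5:**
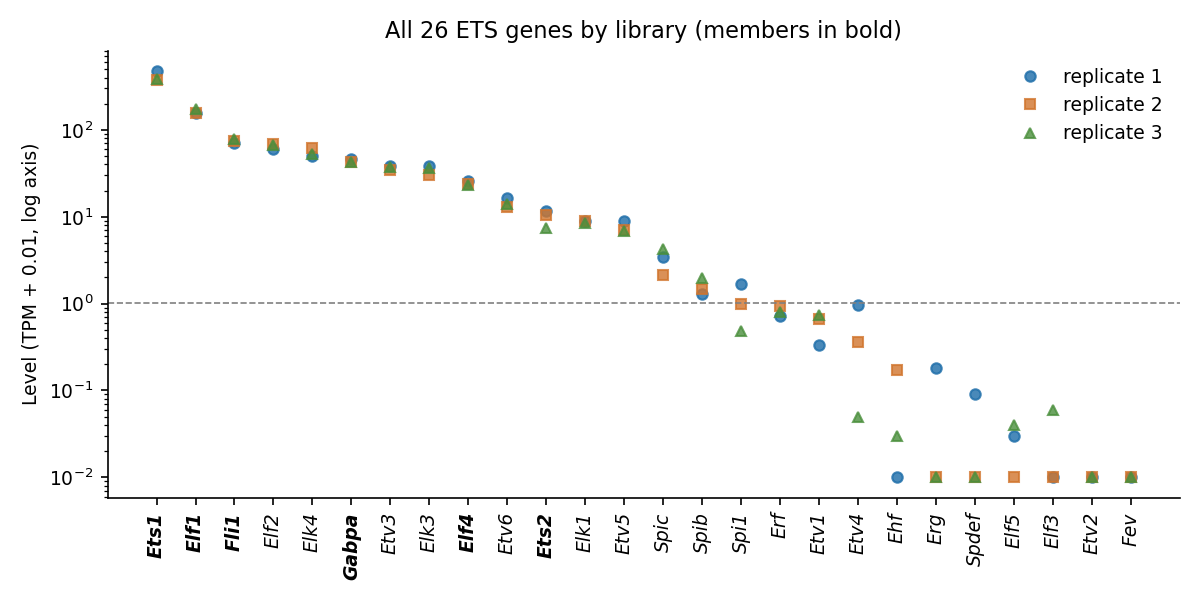
Level of all 26 ETS genes in each library (TPM + 0.01, log axis), ordered by mean, with the 6 members in bold and a dashed line at 1 TPM. Ets1, Elf1 and Fli1 lead, and Elf2 and Elk4 lie between Fli1 and Gabpa.

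Cofactors through which RUNX proteins act were mostly present. Of 13 listed, 10 were detected. Prmt1, an arginine methyltransferase that modifies RUNX1, was at 145 ± 8.47 TPM, and Aes, a short member of the Groucho family of corepressors, at 142 ± 15.5 TPM. The lowest were Runx1t1, the ETO gene of leukaemic RUNX1 fusions, at 0.0333 TPM, and its relative Cbfa2t3 at 0.390 TPM. Of 12 tested, 8 differed between libraries, where 44.9% of all genes did. Highest among these 8 was replicate 1 for 3 genes and replicate 2 for 5, beside 17.1 and 14.2% of all genes tested.

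Of 14 T cell genes known as targets of RUNX or ETS factors, 12 were detected and 8 were at 50 TPM or more. These were Trac at 3180 TPM, Il2rb at 918 TPM, Il2ra at 352 TPM, Cd4 at 264 TPM, Il7r at 141 TPM, Foxp3 at 90.1 TPM, Itgae at 63.5 TPM and Zbtb7b at 58.8 TPM. The lowest were Csf2 at 0.467 TPM and Cd8a at 1.46 TPM, and Cd8a was below 1 TPM in replicate 1. Zbtb7b, which opposes Runx3 in the choice between the CD4 and CD8 lineages, thus stood at 58.8 ± 2.28 TPM beside 7.50 ± 1.21 TPM of Runx3. Of 13 tested, 10 differed between libraries. Of these 10, 7 were highest in replicate 2, 3 in replicate 3 and none in replicate 1. Over all genes tested 44.9% differed, and 17.1, 14.2 and 13.6% differed and were highest in replicates 1, 2 and 3. The difference between this list and the 10 factors was not tested.

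Several of the genes share their locus with others, and the strand setting of the counting is not given in the sources used here. Runx2 overlaps Supt3 on the opposite strand, which at 29.4 ± 2.51 TPM was above Runx2, and the antisense genes Runx2os2 (4.22 TPM) and Runx2os1 (1.21 TPM). Within Fli1 lie Gm37474 (6.93 TPM), Gm22060 (11.2 TPM in replicate 2 from 9 counts), Gm27201 (2.29 TPM) and Gm37082 (1.14 TPM). Elf1 overlaps Wbp4 by 327 bases, and that gene was at 30.3 ± 1.51 TPM. Small RNA genes at 3 counts or fewer over the libraries lie within Cbfb (Gm24629) and Runx2 (n-R5s27). Gabpa overlaps Atp5j by 701 bases, as given above. Gm37474, Gm22060 and Gm37082 are on the same strand as Fli1, Gm24629 as Cbfb and n-R5s27 as Runx2. Strand could not tell reads of these overlaps apart under any setting. The other overlaps named are on opposite strands, and without strand their reads could not be told apart either. The share of all such reads in each gene's counts was not tested.

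A second deposited count table, with whole-number counts on an older annotation, held between 29.3 and 31.1% as many counts per library. Its ratio to the first table differed widely between the genes, from 9.09% for Ets1, 15.0% for Runx2 and 15.6% for Cbfb to 36.6% for Fli1 and 42.0% for Ets2, against a median of 46.5% over all genes compared. Abundant genes had low ratios in general: the median was 10.8% over 269 genes with a mean count of 10000 or more. Ets1 had 2521, 2283 and 2153 counts there and Elf1 2398, 2377 and 2390, against 29785, 25103 and 21639 for Ets1 and 8004, 8225 and 7836 for Elf1 in the first table. Counts are not per length, but Ets1 exceeded Elf1 in every library of the first table and only in replicate 1 of the second. In replicates 2 and 3 of the second, Elf1 had the more counts. How that table was counted is not stated. In it 23.2% of 10885 genes differed between libraries (chi-square test), and 8 of the 10 genes did. Runx2 passed there (adjusted p = 0.0390) and Runx3 did not (adjusted p = 0.0760), so that 7 differed in both tables. All 10 were highest in the same replicate in both. Both tables count the same libraries, so the second is no separate measurement. The shares of all genes that differed in both, or were highest in the same replicate in both, were not computed.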

How the data were processed

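Polyadenylated RNA of 1 biosample was sequenced as 3 libraries. For each library the authors deposited gene and transcript tables with expected counts (estimated counts), TPM and FPKM, made on mm10 with GENCODE M21, per the file headers and the accompanying contents files. The aligner, the version of the quantifier and the strand setting: not given in the sources used here. Transcript tables also give, as deposited, posterior TPM with credibility bounds of unstated level and each transcript's percent of its gene, which was recomputed here from TPM. A smaller deposited table has whole-number counts of 22457 GENCODE M4 genes, without a counting method.

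Rows naming no gene (0.189 to 0.271% of counts) were left out. Totals were 20783676, 21206219 and 18496690 estimated counts for replicates 1, 2 and 3, so that 3 counts equal 0.141 to 0.162 CPM; this covers counting error only, as reads are not independent molecules. Rounded estimated counts of every gene whose counts summed to at least 30 were compared with the library totals by Pearson's chi-square (2 degrees of freedom), and p was adjusted by Benjamini-Hochberg over all of these genes. Duplicated reads would make such p-values too small. As a check of its code, the test was run on simulated data in which some genes were changed in 1 library. Their only noise was counting noise. FPKM values, as deposited, served as an alternative to TPM.

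The members and lists were chosen with earlier results of these data known. Named were all 10 genes, list genes at 50 TPM or more, the 2 lowest of each list, the GABP-beta genes, overlapping genes at 1 TPM or more, and transcripts at 10% or more of their gene. Etv3, Elk3, Etv6, Elk1, Etv5, Spic, Spib, Spi1, Ets1-202, Cbfb-201, Runx1-203 and Runx2-208 were named after their values were seen. Software was edgeR 4.0.16 (TMM factors) and DESeq2 1.42.0 (size factors) in R 4.3.3, and scipy 1.17.1, pandas 2.3.3, numpy 2.4.6 and matplotlib 3.10.9 in Python 3.11.15.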

Additional observations from a re-analysis of the deposited data

How the results depend on the processing

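The thresholds, unit, scaling, count filter, test statistic, pseudocount, gene table and limit for joining starts were each varied, and each library was left out in turn. Of 65 recomputed values that answer a comparison, 58 stayed close to the reported value and 7 moved. For counts, close meant within a fixed ratio of the reported count, a loose limit. Under it, 7 other ETS genes detected at 5 TPM counted as close to 9 at 1 TPM. So did 4701 genes that differed without replicate 3, beside 6575 with all libraries. For levels, log2 ratios and shares, close meant within the SD of the 3 libraries. A mean with 1 of 3 libraries left out always meets that limit, and summed transcript TPM repeats the gene level. The 40 values of single genes were all of these kinds, so that their staying close was no test. Only the log2 ratios could have changed sign, and none did. The number of genes that differed between libraries fell from 6575 to 2520 in the second table, which holds fewer counts, and was 3782 to 4701 with 1 library left out. The number of the 10 genes that differed was 3 to 8 with 1 library left out, against 8 with all. The share of the leading Runx1 start, 81.5%, became 60.8% with starts joined within 100 bases, since Runx1-204 then stands alone, and 86.8% by estimated counts. Depth limits Runx2 most, and 3 libraries of 1 biosample give no measure of variation between animals. No paired analysis was possible because there is 1 group.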
